A study of Capra hircus with 72 samples.

Results

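The collagen chain genes encode the chains that wind around one another to form the triple helix of collagen. They were taken as every gene of the deposited table whose symbol is COL, a number, A and a number with nothing after it, which gave 26 of 21343 genes. By structure, 8 encode fibrillar chains (COL1A1, COL1A2, COL2A1, COL5A2, COL5A3, COL11A1, COL11A2 and COL24A1), 3 basement membrane chains (COL4A1, COL4A2 and COL4A4) and 3 beaded filament chains (COL6A2, COL6A3 and COL6A6). Another 3 encode fibril-associated chains, called FACIT (COL12A1, COL14A1 and COL16A1), 3 short network chains (COL8A1, COL8A2 and COL10A1) and 3 transmembrane chains (COL13A1, COL17A1 and COL25A1). COL15A1 is a multiplexin, and COL26A1 and COL28A1 fall outside these classes. A symbol was missing for 6643 genes of the table, so a chain listed without its symbol is not among the 26. Familiar chains such as COL3A1, COL5A1 and COL6A1 are not analysed here.

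Fibrillar collagens give tissues their tensile strength, and type I, built from the COL1A1 and COL1A2 chains, is the main product of fibroblasts in skin, bone, tendon and the meninges. Brain tissue holds little fibrillar collagen outside its coverings and vessel walls. Its vessels rest on a basement membrane of type IV collagen, around which lie the beaded filaments of type VI. Several other chains sit on fibril surfaces or in cell membranes, and some of these, such as COL25A1, are made by neurons.

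RNA was sequenced from 4 brain regions of female goats (Capra hircus) kept for 14 days under 1 of 3 conditions. The first group breathed room air, the second (mild chronic hypercapnia, called mild CH in the labels) had 14 days at 6% CO2, and the third (moderate chronic hypercapnia) had 7 days at 6% CO2 followed by 7 days at 8%. Tissue came from the medial prefrontal cortex (mPFC), a part of the frontal cortex, and from 3 respiratory regions of the brainstem. These were the solitary tract nucleus (NTS), which receives visceral and chemoreceptor input, the retrotrapezoid nucleus (RTN), which senses CO2, and the ventral respiratory column (VRC), which holds the neurons of the breathing rhythm. Each region and condition has 6 replicates, which makes 72 libraries in 12 groups, with 6 animals per condition in the series description.

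The labels do not say which libraries come from the same goat, nor that replicates of a group are separate animals, so the p-values measure the spread between these samples. Library totals ran from 12.84 M to 31.88 M counts (median 19.3 M), and the 26 chains together took 0.0227% to 0.210% of a library's counts. Marker genes set the mPFC apart from the VRC and the RTN. SLC17A7, the vesicular glutamate transporter of cortical neurons, had 531 CPM (counts scaled to library size) or more in each room air mPFC library. In the VRC it had at most 80.1 CPM. HOXA4, a hindbrain patterning gene, was at most 0.0923 CPM in the mPFC and at least 3.4 CPM in the RTN. These values do not tell the NTS, RTN and VRC from one another. Of the 26 chains, 24 passed the filter on low counts in every region, and COL6A6 and COL26A1 did not.

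Under room air the chains that led each region differed. Levels are given as RPKM (reads scaled by gene model length and library size), the scale on which genes of different length can be compared. Shares are of the group means. In the mPFC, COL1A2 made up 59.1% of the summed mean RPKM of all 26 chains, followed by COL6A2 with 8.62% and COL1A1 with 5.93%. In the NTS, COL1A2 again came first with 28.1% and COL6A2 second with 18.4%. That mean of COL1A2 includes replicate 5 at 78.9 RPKM, where the others had 2.72 to 25.8. In the RTN, COL6A2 led with 24.1%, ahead of COL1A2 with 16.8% and COL16A1 with 12.4%. In the VRC the summed level was spread more evenly: COL6A2 had 17.1%, COL16A1 14.7%, COL4A1 12.4% and COL5A3 10.7%, and COL1A2 had 6.1%. By median, COL16A1 led in the VRC with 13.0 RPKM, ahead of COL6A2 with 11.4. In the RTN the medians of COL16A1 and COL1A2 were both 10.5 RPKM. 

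Summed by class, the fibrillar chains had a median of 122 RPKM in the mPFC (26.6 to 296 over 6 libraries), 42.6 RPKM in the NTS, 29.8 RPKM in the RTN and 26.1 RPKM in the VRC. The basement membrane chains were level, with medians of 12.2, 12, 12.6 and 12.6 RPKM in the same order, and the beaded filament chains had medians between 14.6 and 19.8 RPKM. The FACIT chains summed to medians of 8.48 RPKM in the mPFC, 8.01 in the NTS, 12.8 in the RTN and 15.3 in the VRC, a sum that COL16A1 led in the brainstem. Transmembrane chains had a median of 8.34 RPKM in the mPFC and 1.66 to 2.83 RPKM in the brainstem regions.

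**Figure D1:**
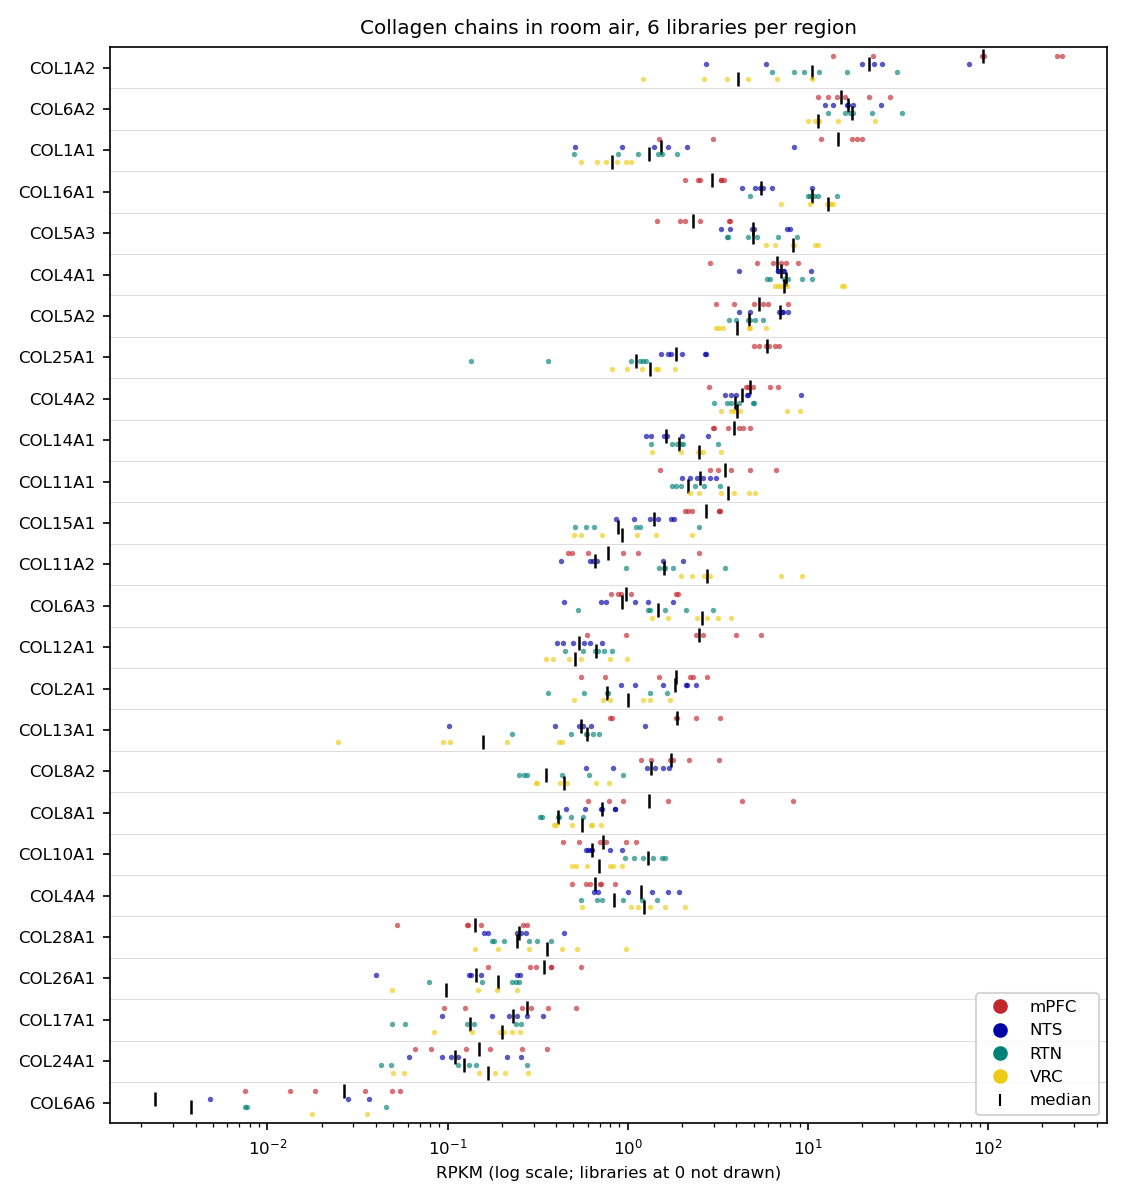
Levels of the collagen chains in the room air libraries of the 4 regions, in RPKM on a log axis, with a point for each of the 6 libraries of a region and a black mark at the median. COL1A2 has the highest points in the mPFC, with a spread from 13.8 to 256 RPKM, while COL6A2 sits between 9.97 and 33.4 RPKM in every region.

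Between regions, 18 of the 24 chains tested differed in at least 1 of 6 room air comparisons at an adjusted p under 0.05 (edgeR's quasi-likelihood test with Benjamini-Hochberg adjustment over 15700 genes), as did 76.7% of all genes. Regions of the brain differ in a large share of all genes, which is the background for these counts. Against the NTS, 8 chains were higher and 3 lower in the mPFC, where 48.3% of all genes were called. Against the RTN, 9 were higher and 3 lower in the mPFC (54.8% of all genes), and against the VRC 9 were higher and 7 lower (60.3% of all genes). Within the brainstem, 2 chains were higher and 2 lower in the NTS than in the RTN (21.6% of all genes), 3 were higher and 5 lower in the NTS than in the VRC (33% of all genes), and 1 was higher in the RTN than in the VRC (14.7% of all genes). The members' share lay near or below that background in all 6 comparisons, so the counts say nothing particular about the chains as a set, and the results that follow concern single chains. With the replicate number as a block, 6 chains were called between the NTS and the RTN (28.1% of all genes), 12 between the NTS and the VRC (40.1%) and 6 between the RTN and the VRC (21.7%). Against all 3 brainstem regions 10 chains were called in the mPFC (35% of all genes): COL1A1, COL1A2, COL8A1, COL12A1, COL13A1, COL14A1, COL15A1 and COL25A1 were higher there, and COL5A3 and COL16A1 lower. COL2A1, COL4A2, COL5A2, COL6A2, COL17A1 and COL24A1 were called in none of the 6 comparisons, although with the block COL6A2 was called in 5, and COL2A1 and COL5A2 in 1 each.

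Type I collagen set the mPFC apart. COL1A2 (ENSCHIG00000025647, chromosome 4), the second chain of the type I molecule, ran from 13.8 to 256 RPKM in the room air mPFC libraries with a median of 94.1. In the NTS it ran from 2.72 to 78.9 RPKM (median 21.7), in the RTN from 6.36 to 31.2 (median 10.5) and in the VRC from 1.21 to 10.5 (median 4.09). Every mPFC library lay above every VRC library, while the mPFC overlapped the NTS and the RTN. The log2 fold difference was 2.18 ± 0.70 (SE) against the NTS (adjusted p = 0.0124), 2.94 ± 0.72 against the RTN (adjusted p = 0.00127) and 4.48 ± 0.78 against the VRC (adjusted p = 2.52e-05), the last a 22.4-fold difference. Without NTS replicate 5 the difference from the NTS was 2.94. COL1A2 was also higher in the NTS than in the VRC, by 2.31 ± 0.71 on the log2 scale (adjusted p = 0.0149). In bulk tissue, fewer cells of a type and less RNA per cell cannot be told apart.

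COL1A1 (ENSCHIG00000021319, chromosome 19), the main chain of type I collagen, followed the same order at lower RPKM. Its room air levels were 1.49 to 19.9 RPKM in the mPFC (median 14.7), 0.508 to 8.39 in the NTS (median 1.53), 0.501 to 1.88 in the RTN (median 1.31) and 0.549 to 1.04 in the VRC (median 0.818). Only the mPFC and VRC libraries were fully separate. The mPFC was 4.73-fold above the NTS (log2 2.24 ± 0.57, adjusted p = 0.00214), 8.71-fold above the RTN (log2 3.12 ± 0.59, adjusted p = 9.16e-05) and 13.5-fold above the VRC (log2 3.76 ± 0.62, adjusted p = 1.24e-05). Without NTS replicate 5 the difference from the NTS was 3.19. COL1A1 was also called higher in the NTS than in the VRC (log2 1.51 ± 0.58, adjusted p = 0.0479), a call that ended when any of 9 of the 12 libraries was left out.

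The type I level within the mPFC varied with the markers of fibroblasts and meninges. All 12 genes of that marker list have an entry in the table, and their summed level in room air was 92.1 to 728 CPM in the mPFC (median 314), 85.8 to 159 CPM in the NTS, 105 to 140 CPM in the RTN and 82.6 to 121 CPM in the VRC. The 2 mPFC libraries with the lowest marker sums, 92.1 and 114 CPM, also had the lowest COL1A2 levels, 13.8 and 22.9 RPKM, and the 2 with the highest sums, 602 and 728 CPM, had 256 and 240 RPKM. Of the defining markers, DCN, a small proteoglycan of fibroblasts, had 23.9 to 114 CPM in the mPFC, while DPT was at 0 in 5 of 6 room air mPFC libraries and in 6 of 6 of the VRC. Over the 18 libraries of the mPFC, after removing the condition means, COL1A2 and the mean log2 level of the markers had a Pearson r of 0.98 (permutation p = 1e-05, the smallest that 100000 permutations can give) and a Spearman rho of 0.89, and r was 0.96 without the 2 libraries farthest from the median. Adjusted over the 36 correlations computed, the permutation p was 0.00018 in the mPFC. The same r was 0.61 in the NTS (adjusted permutation p = 0.0485), 0.54 in the RTN (adjusted permutation p = 0.0622, which did not pass) and 0.72 in the VRC (adjusted permutation p = 0.0173). Without the 2 farthest libraries it was 0.79, 0.36 and 0.41.

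With the mean log2 level of these markers as a covariate, a fit chosen after seeing the data, most type I differences of the mPFC no longer passed. For COL1A2 the log2 difference was then -0.75 against the NTS (adjusted p = 0.359), 0.57 against the RTN (adjusted p = 0.400) and 1.15 against the VRC (adjusted p = 0.135). For COL1A1 it was -0.11 (adjusted p = 0.895), 1.18 (adjusted p = 0.0423) and 0.95 (adjusted p = 0.185) in the same order. Of the 10 chains called against all 3 brainstem regions, COL16A1 and COL25A1 passed against all 3 with the covariate. COL5A3 and COL14A1 passed against 2 of the 3 regions, COL15A1 against the RTN alone, COL8A1 against the RTN alone, COL13A1 against the VRC alone, and COL12A1 against none. Most mPFC libraries had fibroblast marker sums above every brainstem library, so region and marker level cannot be fully told apart in this fit. The pericyte and smooth muscle markers also had a higher summed median in the mPFC, 408 CPM, against 223, 247 and 279 CPM in the NTS, RTN and VRC. Their part in these differences was not tested. In the NTS, 1 room air library (replicate 5) held the highest COL1A1 and COL1A2 levels of its group, 8.39 and 78.9 RPKM, together with a fibroblast marker sum of 159 CPM and a choroid plexus sum of 314 CPM. Without it the COL1A2 difference between the NTS and the VRC was 1.54 (adjusted p = 0.0834) and that of COL1A1 0.57 (adjusted p = 0.412), and neither passed.

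**Figure D2:**
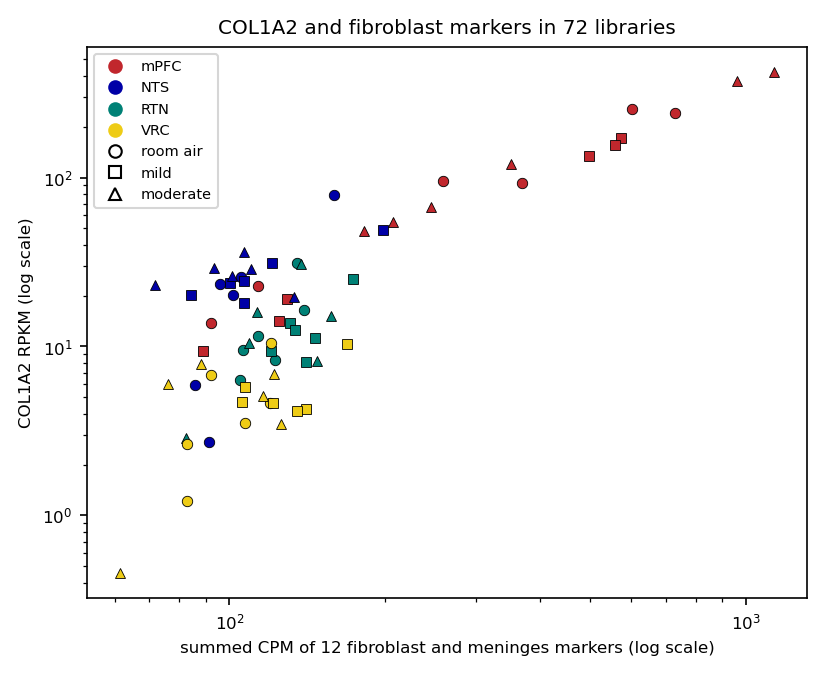
COL1A2 level against the summed level of the 12 fibroblast and meninges markers, both on log axes, with a point for each of the 72 libraries, coloured by region and shaped by condition. The mPFC libraries spread along a line from low to high on both axes, while those of the VRC lie at the low end of both.

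Of the other fibrillar chains, COL5A3 (chromosome 7), a minor chain that joins type V fibrils, was lower in the mPFC than in each brainstem region. It had 1.46 to 3.68 RPKM in the mPFC (median 2.29), 3.29 to 7.94 in the NTS (median 4.97), 3.57 to 8.68 in the RTN (median 4.94) and 5.86 to 11.4 in the VRC (median 8.30). The VRC libraries lay wholly above those of the mPFC. The log2 difference of the mPFC was -1.07 ± 0.26 against the NTS (adjusted p = 0.0016), -1.22 ± 0.26 against the RTN (adjusted p = 0.000375) and -1.86 ± 0.27 against the VRC (adjusted p = 1.83e-06), and the NTS was also below the VRC (-0.79 ± 0.26, adjusted p = 0.0204).

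The type XI chains, which form the core of thin fibrils in cartilage and are also made in the nervous system, had different regional patterns. COL11A2 (chromosome 23) had 0.467 to 2.48 RPKM in the mPFC (median 0.773), 0.429 to 2.02 in the NTS (median 0.655), 0.982 to 3.47 in the RTN (median 1.60) and 1.97 to 9.24 in the VRC (median 2.76). It was lower in the mPFC than in the VRC by -2.21 ± 0.47 on the log2 scale (adjusted p = 0.000292) and lower in the NTS than in the VRC by -2.29 ± 0.47 (adjusted p = 0.000687), with a slight overlap in both. COL11A1 (chromosome 3) had medians of 3.46, 2.51, 2.17 and 3.59 RPKM in the mPFC, NTS, RTN and VRC. Without the block it was called only in the NTS against the VRC (log2 -0.63 ± 0.24, adjusted p = 0.0479). That call was kept in only 4 of 12 fits that each left out 1 library. With the replicate number as a block, COL11A1 was called in 4 of the 6 comparisons. COL5A2, the second chain of type V, had medians of 4.04 to 7.03 RPKM and COL2A1, the cartilage collagen, medians of 0.771 to 1.85 RPKM. Neither was called between any regions without the block. COL24A1, a minor fibrillar chain, was low, with medians of 0.11 to 0.167 RPKM.

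The basement membrane chains differed little. COL4A1 (chromosome 12), one of the pair of chains in the common type IV network of vessels, had 2.86 to 8.80 RPKM in the mPFC (median 6.74) and 6.58 to 15.8 in the VRC (median 7.40), with medians of 7.05 in the NTS and 7.59 in the RTN. It was lower in the mPFC than in the VRC (log2 -0.76 ± 0.26, adjusted p = 0.0149), with overlapping libraries, and did not pass without VRC replicate 3 or 5 (adjusted p up to 0.0576). COL4A2, its partner on the same chromosome, had medians of 3.95 to 4.80 RPKM and was called in no comparison. COL4A4 (chromosome 2), a chain of the less common type IV network, had 0.490 to 0.848 RPKM in the mPFC (median 0.659), 0.646 to 1.93 in the NTS (median 1.18) and 0.561 to 2.08 in the VRC (median 1.23). COL4A4 was lower in the mPFC than in the NTS (log2 -0.87 ± 0.30, adjusted p = 0.0199, not passing without NTS replicate 5 or 6) and the VRC (log2 -1.08 ± 0.30, adjusted p = 0.00356). The endothelial marker list summed to 323 to 456 CPM in the room air mPFC libraries and 415 to 620 in the NTS. It summed to 426 to 632 CPM in the RTN and 582 to 909 in the VRC. By median the RTN sum (537 CPM) lay above that of the NTS (510 CPM), while the RTN median of COL4A4, 0.834 RPKM, lay below. The part of these markers in the COL4A1 and COL4A4 differences was not tested.

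Of the type VI chains, COL6A2 (chromosome 1) was high everywhere, with room air medians of 15.3, 16.6, 17.5 and 11.4 RPKM in the mPFC, NTS, RTN and VRC, and was called in no comparison without the block. COL6A3 (chromosome 3), the longest type VI chain, was much lower in RPKM: 0.808 to 1.90 RPKM in the mPFC (median 0.978), 0.444 to 1.79 in the NTS (median 0.930), 0.533 to 2.98 in the RTN (median 1.46) and 1.36 to 3.76 in the VRC (median 2.59). COL6A3 was lower than in the VRC in both the mPFC (log2 -1.14 ± 0.35, adjusted p = 0.00703) and the NTS (log2 -1.44 ± 0.35, adjusted p = 0.00293). The mPFC and NTS levels overlapped VRC replicates 1 and 2, at 1.67 and 1.36 RPKM.

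COL16A1 (chromosome 2), a FACIT chain found at the edge of basement membranes and fibrils, was lower in the mPFC than in each brainstem region. It had 2.07 to 3.41 RPKM in the mPFC (median 2.92), 4.30 to 10.5 in the NTS (median 5.51), 4.80 to 14.6 in the RTN (median 10.5) and 7.14 to 13.8 in the VRC (median 13.0). The highest mPFC library lay below the lowest library of each brainstem region. The mPFC difference was -1.11 ± 0.23 on the log2 scale against the NTS (adjusted p = 0.000269), -1.98 ± 0.23 against the RTN (adjusted p = 1.03e-07) and -2.16 ± 0.23 against the VRC (adjusted p = 2.25e-08). Within the brainstem the NTS was below the RTN (-0.87 ± 0.22, adjusted p = 0.00643) and the VRC (-1.04 ± 0.22, adjusted p = 0.000921). The oligodendrocyte marker list moved with these levels, with summed medians of 3691 CPM in the mPFC, 15157 in the NTS, 24897 in the RTN and 43302 in the VRC, and its part in the COL16A1, COL5A3 and COL25A1 differences was not tested.

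The other FACIT chains were higher in the mPFC than in each brainstem region. COL12A1 (chromosome 9), found on type I fibrils of dense tissue, had 0.597 to 5.47 RPKM in the mPFC (median 2.5) and medians of 0.535, 0.670 and 0.512 RPKM in the NTS, RTN and VRC. COL12A1 was 4.89-fold higher in the mPFC than in the NTS (adjusted p = 1.45e-05), 3.68-fold higher than in the RTN (adjusted p = 0.000102) and 4.12-fold higher than in the VRC (adjusted p = 3.51e-05). Its lowest mPFC library fell among those of each brainstem region. The next, replicate 3 at 0.981 RPKM, lay below VRC replicate 5 at 0.996. COL14A1 (chromosome 14), also a fibril-surface chain, had 2.96 to 4.78 RPKM in the mPFC (median 3.89) against medians of 1.62, 1.93 and 2.49, and was separate from the NTS only. Its log2 difference ran from 0.58 ± 0.22 against the VRC (adjusted p = 0.0256) to 1.11 ± 0.22 against the NTS (adjusted p = 0.000198).

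The type VIII chains form a lattice under endothelia. COL8A1 (chromosome 1) had 0.605 to 8.29 RPKM in the mPFC (median 1.31) and medians of 0.718, 0.413 and 0.557 in the NTS, RTN and VRC. It was called in the mPFC against all 3, with log2 differences of 1.99 ± 0.45 (adjusted p = 0.00071), 2.56 ± 0.46 (adjusted p = 4.73e-05) and 2.23 ± 0.45 (adjusted p = 0.000172) in that order. Without mPFC replicate 2, which had the highest level, these were 1.26, 1.83 and 1.5, and each still passed. COL8A2 (chromosome 3), its partner, had 1.18 to 3.22 RPKM in the mPFC (median 1.75) and 0.589 to 1.70 in the NTS (median 1.35), and medians of 0.354 in the RTN and 0.440 in the VRC. Both the mPFC and the NTS exceeded the RTN and the VRC in COL8A2, by 1.18 to 1.89 on the log2 scale. COL10A1 (chromosome 9), the collagen of growth-plate cartilage, was highest in the RTN, at 0.969 to 1.61 RPKM (median 1.3). Every RTN library lay above every NTS and VRC library, and COL10A1 was lower by -0.92 ± 0.22 in the mPFC than in the RTN (adjusted p = 0.00108). The NTS was lower than the RTN by -1.05 ± 0.22 (adjusted p = 0.00129), and the RTN higher than the VRC by 0.93 ± 0.22 (adjusted p = 0.00577). COL10A1 lies within NT5DC1 in the RefSeq annotation (ARS1.2), and the sources used here do not say whether counting used the strand, so its level is uncertain.

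Of the transmembrane chains, COL25A1 and COL13A1 were higher in the cortex than in every brainstem region. COL25A1 (chromosome 6), a neuronal chain whose shed part is found in amyloid plaques, had 5.05 to 6.93 RPKM in the mPFC (median 5.95), 1.54 to 2.73 in the NTS (median 1.86), 0.135 to 1.27 in the RTN (median 1.11) and 0.817 to 1.83 in the VRC (median 1.32). The mPFC libraries lay wholly above those of each other region. The difference was 2.92-fold against the NTS (log2 1.55 ± 0.31, adjusted p = 0.000216), 6.26-fold against the RTN (log2 2.65 ± 0.33, adjusted p = 2.81e-07) and 4.25-fold against the VRC (log2 2.09 ± 0.32, adjusted p = 4.66e-06). COL25A1 was also higher in the NTS than in the RTN (log2 1.10 ± 0.33, adjusted p = 0.0167), again with no overlap. COL13A1 (chromosome 28), a chain of cell adhesion sites, had 0.799 to 3.27 RPKM in the mPFC (median 1.87), 0.102 to 1.25 in the NTS, 0.228 to 0.691 in the RTN and 0.0246 to 0.433 in the VRC. It was 3.14-fold (adjusted p = 0.00633), 3.06-fold (adjusted p = 0.00625) and 7.77-fold (adjusted p = 3.25e-05) higher in the mPFC, on as few as 1 count in a VRC library. COL17A1, the collagen of epithelial anchors, had medians of 0.134 to 0.276 RPKM and was called in no comparison.

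COL15A1 (chromosome 8), a proteoglycan collagen of vessel basement membranes, had 2.07 to 3.25 RPKM in the mPFC (median 2.74), with medians of 1.40 in the NTS, 0.878 in the RTN and 0.924 in the VRC. It was higher in the mPFC by 0.97 ± 0.35 on the log2 scale against the NTS (adjusted p = 0.024), 1.19 ± 0.35 against the RTN (adjusted p = 0.00586) and 1.18 ± 0.35 against the VRC (adjusted p = 0.00564). Only the NTS libraries were fully separate from those of the mPFC. COL28A1 (chromosome 4), a chain of peripheral nerve, was low, at 0.0525 to 0.276 RPKM in the mPFC and 0.142 to 0.983 in the VRC, and was lower in the mPFC than in the VRC (log2 -1.44 ± 0.42, adjusted p = 0.00451).

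Few chains had libraries that were wholly separate between regions. Between the mPFC and the VRC 7 of 24 chains did not overlap (37.8% of all genes), between the mPFC and the RTN 5 (36.6%), and between the mPFC and the NTS 4 (24.1%). Between the NTS and the RTN 2 chains did not overlap (8.4% of all genes), between the RTN and the VRC 1 (9.26%), and between the NTS and the VRC 0 (9.68%). These shares are near or below those of all genes. Leaving out each room air library in turn, 44 calls held in every fit and 8 did not, those of COL4A4 and COL15A1 between the mPFC and the NTS, COL4A1 and COL14A1 between the mPFC and the VRC, and COL1A1, COL1A2, COL5A3 and COL11A1 between the NTS and the VRC.

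Chains known to assemble in the same molecule were compared across the 18 libraries of a region, after removing condition means. In all there were 36 correlations over 9 pairs, including pairs of a chain with a marker list. Permutation p-values adjusted over the 36 are given as BH. Pairs with a marker list, COL11A1 with COL11A2, and COL6A2 with COL6A3 were added after seeing the data. COL1A1 and COL1A2 moved together in every region, with r = 0.97 in the mPFC (rho 0.91, permutation BH p = 0.00018), 0.73 in the NTS (rho 0.59, permutation BH p = 0.0173), 0.75 in the RTN (rho 0.72, permutation BH p = 0.00522) and 0.46 in the VRC (rho 0.59, permutation BH p = 0.0364). Without the 2 libraries farthest from the median, r stayed at 0.96, 0.63, 0.71 and 0.52. In RPKM the median ratio of COL1A2 to COL1A1 was 9.33, 14.1, 8.50 and 5.35 in the same order, whereas the type I molecule holds more of the COL1A1 chain.

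COL4A1 and COL4A2, which share a promoter region on chromosome 12, had r = 0.94 in the mPFC (rho 0.91, permutation BH p = 0.000432), 0.74 in the RTN (rho 0.72, permutation BH p = 0.00522) and 0.91 in the VRC (rho 0.92, permutation BH p = 0.00024). In the NTS r was 0.49 (rho 0.47, permutation BH p = 0.156) and did not pass. Without the 2 farthest libraries r was 0.76, 0.63 and 0.90 in the mPFC, RTN and VRC. COL4A1 also moved with the mean endothelial marker level in the NTS (r = 0.60, permutation BH p = 0.0444), the RTN (r = 0.82, permutation BH p = 0.00319) and the VRC (r = 0.77, permutation BH p = 0.0027), while r was 0.28 in the mPFC (permutation p = 0.329).

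Other pairs passed in fewer regions or in none. COL8A1 and COL8A2 had r = 0.82 in the mPFC (rho 0.85, permutation BH p = 0.00036), 0.01 in the NTS, 0.16 in the RTN and -0.14 in the VRC. Whether these r values differ was not tested. COL11A1 and COL11A2 had r = 0.78 in the mPFC (permutation BH p = 0.00468) and 0.67 in the NTS (permutation BH p = 0.0192), and 0.19 and 0.33 in the RTN and VRC. COL6A2 and COL6A3, both chains of the type VI monomer, had r between -0.20 and 0.00 in the 4 regions, and without the 2 farthest libraries r was -0.30, 0.11, -0.54 and -0.14 in the mPFC, NTS, RTN and VRC. The RPKM of COL6A3 was 0.068 of that of COL6A2 at the median in the mPFC and 0.325 in the VRC.

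**Figure D3:**
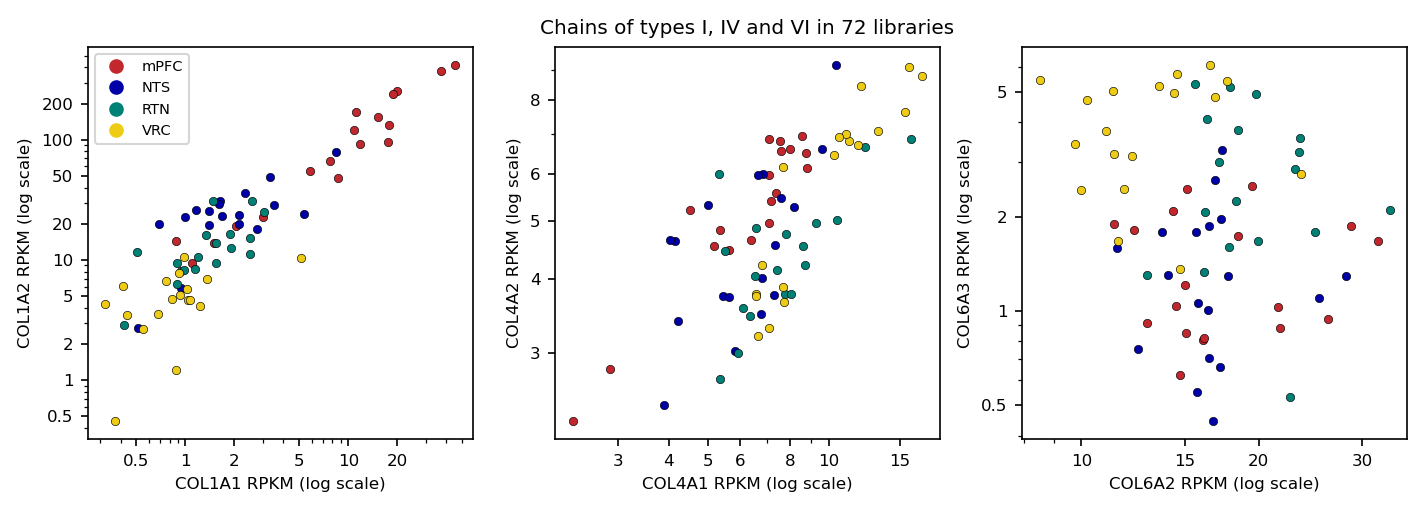
Levels of the COL1A1 and COL1A2, COL4A1 and COL4A2, and COL6A2 and COL6A3 pairs in RPKM on log axes, with a point for each of the 72 libraries coloured by region. COL1A1 with COL1A2 and COL4A1 with COL4A2 form bands, while COL6A2 with COL6A3 forms a cloud in each region.

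The genes that make, read and surround collagen were taken from 3 lists. Of the collagen synthesis list (hydroxylases, chaperones, propeptide proteases and crosslinking enzymes) 33 genes were tested between regions, and in the mPFC 6 were higher and 7 lower than in the NTS, 6 higher and 9 lower than in the RTN, and 10 higher and 10 lower than in the VRC. Of all genes, 48.3%, 54.8% and 60.3% were called in these comparisons, and the list's shares lay near or below those. PLOD3, a lysyl hydroxylase and glycosyltransferase of collagen, had a mean of 19.7 RPKM in the mPFC and 42 in the VRC (log2 -1.20 ± 0.09, adjusted p = 1.75e-11), with no overlap. ADAMTS3, a protease that trims procollagen, ran the other way with means of 2.68 and 0.648 RPKM (log2 1.94 ± 0.25, adjusted p = 4.37e-07). SERPINH1, the collagen chaperone, had means of 7.30 RPKM in the mPFC and 8.09 in the VRC and did not pass (adjusted p = 0.248).

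Of the 18 receptors and breakdown genes tested, 5 were higher and 5 lower in the mPFC than in the VRC, where 60.3% of all genes were called. ITGA2, the collagen-binding integrin subunit, had means of 0.864 RPKM in the mPFC and 3.69 in the VRC (log2 -2.21 ± 0.26, adjusted p = 8.5e-08). DDR1, a receptor kinase that binds collagen, had 7.56 and 14.6 RPKM (log2 -1.06 ± 0.14, adjusted p = 8.23e-07), and FAP, a protease of activated fibroblasts, had 0.717 and 0.0488 RPKM (log2 3.74 ± 0.54, adjusted p = 2.09e-06). Of the 22 matrix partners, 9 were higher and 4 lower in the mPFC than in the VRC, again beside 60.3% of all genes. FMOD, a proteoglycan that binds type I fibrils, had means of 14.0 RPKM in the mPFC and 0.922 in the VRC (log2 3.79 ± 0.45, adjusted p = 1e-07). The laminin chains split: LAMB1 had 3.90 and 0.671 RPKM (log2 2.42 ± 0.38, adjusted p = 7.66e-06) and LAMC1 had 2.21 and 7.82 RPKM (log2 -1.94 ± 0.18, adjusted p = 2.17e-09). SPARC, a collagen-binding protein of glia and vessels, had means of 300.1 RPKM in the mPFC and 1338 in the NTS (log2 -2.15 ± 0.28, adjusted p = 9.28e-07).

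Hypercapnia was compared with room air in each region, and moderate with mild, which gave 12 comparisons. In none of them did a collagen chain pass an adjusted p under 0.05 in edgeR's quasi-likelihood test (0 of 24 in each). Few or no genes of any kind did: 0% of the genes tested were called in 11 comparisons, and 0.00649% in the NTS under moderate hypercapnia. DESeq2 called 1 chain, COL6A3 in the VRC under mild hypercapnia, where it called 26 genes in all (0.17% of those tested), and 0 chains in the other 11 comparisons. Limma with quality weights called 0 in all 12. The mild and moderate comparisons of a region share the same room air libraries, so their results are not independent of each other.

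At an unadjusted p under 0.05 edgeR gave few chains as well. In the mPFC there were 0 under mild hypercapnia (3.45% of all genes), 0 under moderate (2.1%) and 0 between moderate and mild (4.71%). In the NTS there was 1 higher and 2 lower under mild hypercapnia (4.66%), 1 higher and 2 lower under moderate (13.4%), and 2 lower in moderate than in mild (4.02%). In the RTN there was 1 higher and 2 lower under mild hypercapnia (6.59%), 1 higher under moderate (7.38%), and 1 lower in moderate than in mild (10.6%). In the VRC 3 were higher under mild hypercapnia (6.23%), 2 higher and 2 lower under moderate (5.67%), and 0 higher and 6 lower in moderate than in mild (15.5%, and 7.87% lower). The chains' share lay above that of all genes in 6 of the 12 comparisons, all of the VRC and those of mild hypercapnia in the NTS and RTN and of moderate against mild in the NTS, and below it in the other 6. Whether the chains stand apart from other genes was not tested.

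The direction of all 24 chains together also differed between comparisons. In the mPFC under mild hypercapnia 6 chains had a positive and 18 a negative log2 fold difference, with a median of -0.19 (48% of all genes were positive). All 8 fibrillar chains were negative there, with a median of -0.48. Under moderate hypercapnia in the same region 15 were positive and 9 negative, with a median of 0.08 (52.1% of all genes). In the NTS the medians were 0.02 under mild (13 positive, 48% of all genes) and -0.15 under moderate hypercapnia (7 positive, 49.2%), and in the RTN 0.06 (14 positive, 49.9%) and 0.01 (13 positive, 49.9%). In the VRC the medians were 0.13 under mild (16 positive, 51.2%) and -0.11 under moderate hypercapnia (9 positive, 51.4%). Moderate against mild gave 16 positive in the mPFC (median 0.30; 54.1% of all genes), 8 in the NTS (-0.13; 50.1%), 11 in the RTN (-0.05; 52.3%) and 6 in the VRC (-0.27; 50.5%). The fibrillar chains of the mPFC include the type I pair, whose levels moved with the fibroblast markers, and the summed marker level was 89.0 to 573 CPM under mild, 182 to 1135 CPM under moderate hypercapnia and 92.1 to 728 CPM under room air. Of the pericyte and smooth muscle markers, 10 of 10 had a negative difference in the mPFC under mild hypercapnia (median -0.46), and their part was not tested.

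**Figure D4:**
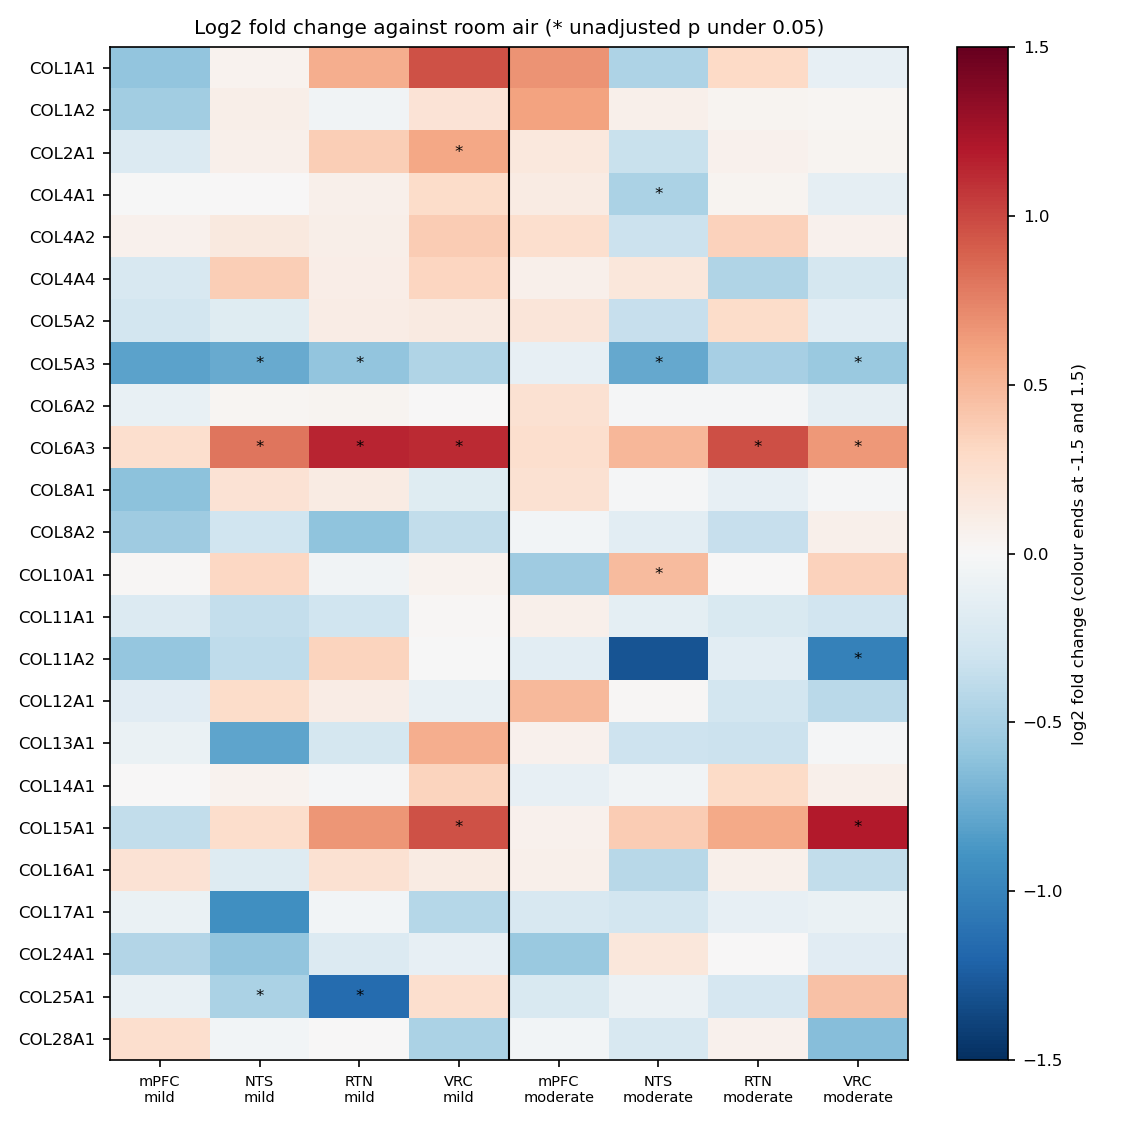
Log2 fold difference of each of the 24 tested chains from room air, under mild and moderate hypercapnia in the 4 regions, with a line for each chain, colour for the size and sign, and a star for an unadjusted p under 0.05. COL6A3 is above 0 and COL5A3 below 0 in every region for both conditions, and no value passed an adjusted p under 0.05 in edgeR.

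Type I collagen under hypercapnia did not differ from room air beyond the spread between libraries. COL1A2 ran from 9.38 to 170.4 RPKM in the mPFC under mild hypercapnia (median 76.6) and from 48.1 to 421 under moderate (median 93.3), against 13.8 to 256 under room air (median 94.1). The log2 difference was -0.52 ± 0.81 for mild (adjusted p = 1.0) and 0.60 ± 0.81 for moderate hypercapnia (adjusted p = 1.0). In the NTS the COL1A2 medians were 21.7, 24.1 and 27.5 RPKM under room air, mild and moderate hypercapnia, in the RTN 10.5, 11.9 and 12.8, and in the VRC 4.09, 4.67 and 5.55. In every region all 3 groups overlapped.

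COL6A3 had the smallest p of any chain against room air. In the VRC it had 1.36 to 3.76 RPKM under room air (median 2.59), 4.98 to 6.11 under mild hypercapnia (median 5.45) and 2.45 to 5.22 under moderate (median 4.08). All 6 mild libraries lay above the highest room air library, a separation in that direction shown by 0.196% of all genes, while the moderate libraries overlapped both other groups. The log2 difference for mild hypercapnia was 1.12 ± 0.21 with an unadjusted p of 2.96e-05 and an adjusted p of 0.148 in edgeR, which did not pass. DESeq2 gave 1.12 with an adjusted p of 0.000628, and limma with quality weights gave 1.13 with an adjusted p of 0.0627. Leaving out each library in turn, edgeR gave 0.99 to 1.26 with adjusted p from 0.0992 to 0.383. For moderate hypercapnia the difference was 0.65 ± 0.21 (unadjusted p = 0.00487, adjusted p = 0.793), with 5 of 6 libraries above the room air median, and moderate against mild gave -0.46 ± 0.21 (unadjusted p = 0.0365, adjusted p = 0.29).

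In the VRC other markers moved with the mild group. The fibroblast and meninges markers summed to 82.6 to 121 CPM under room air, 106 to 169 under mild and 61.3 to 126 under moderate hypercapnia. Those of microglia and macrophages summed to 171 to 351, 268 to 418 and 183 to 326 CPM, and those of leukocytes to 11.8 to 21.6, 15.5 to 105 and 15 to 19.9 CPM. The fibroblast marker score was also tried as a covariate, chosen after seeing the data. The COL6A3 difference under mild hypercapnia was then 0.87 on the log2 scale in edgeR (unadjusted p = 0.00095, adjusted p = 0.955). The part of microglia, macrophages and leukocytes in it was not tested.

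COL6A3 had positive values in the other regions too, none of which passed after adjustment. In the RTN it had 0.533 to 2.98 RPKM under room air (median 1.46), 1.79 to 5.30 under mild (median 3.68) and 1.67 to 5.17 under moderate hypercapnia (median 2.54). All 6 libraries of both hypercapnia groups lay above the room air median, with log2 differences of 1.15 ± 0.34 (unadjusted p = 0.0033, adjusted p = 0.666) and 0.97 ± 0.34 (unadjusted p = 0.0107, adjusted p = 0.591). In the RTN under mild hypercapnia 6 of 6 microglia and macrophage markers (median log2 difference 0.46, 3 at an unadjusted p under 0.05) and 6 of 6 leukocyte markers (median 0.60, 2 at such a p) were also positive. Their sums were 285 to 411 and 18.9 to 34.4 CPM, against 182 to 377 and 11.8 to 25.4 CPM under room air, and their part in the COL6A3 values was not tested. In the NTS the medians were 0.930, 1.69 and 1.03 RPKM, and the mild difference was 0.80 ± 0.38 (unadjusted p = 0.0495, adjusted p = 0.848), again with 6 of 6 libraries above the room air median. In the mPFC the medians were 0.978, 1.47 and 1.31 RPKM, and the log2 differences were 0.26 ± 0.34 and 0.25 with unadjusted p of 0.463 and 0.472. Its partner COL6A2 had VRC medians of 11.4, 14.4 and 12 RPKM under room air, mild and moderate hypercapnia, with overlapping groups. COL6A6, a related chain, was at most 0.0587 RPKM and at 0 in 34 of 72 libraries.

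**Figure D5:**
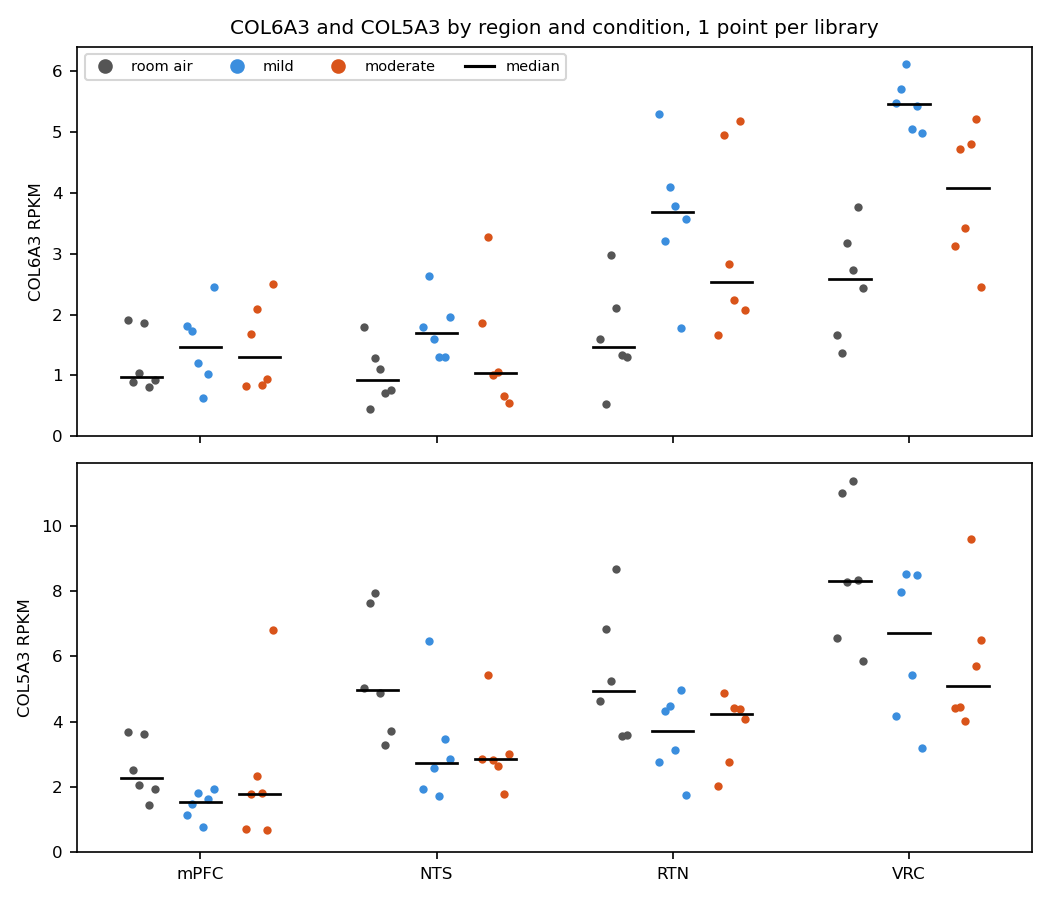
COL6A3 and COL5A3 levels in RPKM in each of the 12 groups, with a point for each of the 6 libraries and a bar at the median. In the VRC the 6 mild libraries of COL6A3 sit between 4.98 and 6.11 RPKM, above the highest room air library at 3.76, and the COL5A3 groups overlap in every region.

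COL5A3 ran the other way. In the NTS it had 3.29 to 7.94 RPKM under room air (median 4.97), 1.72 to 6.46 under mild (median 2.72) and 1.80 to 5.42 under moderate hypercapnia (median 2.85). The log2 differences were -0.76 ± 0.31 (unadjusted p = 0.0218, adjusted p = 0.848) and -0.77 ± 0.31 (unadjusted p = 0.0206, adjusted p = 0.337), and in both groups 1 library, replicate 2, lay far above the rest. Without that mild library the mild difference was -1.08 with an adjusted p of 0.348. The oligodendrocyte markers of the NTS moved with COL5A3: 8 of 8 had a negative difference under mild (median -0.58, 2 at an unadjusted p under 0.05) and under moderate hypercapnia (median -0.88, 8 at such a p). Their sum was 7616 to 35780 CPM under room air, 6341 to 21308 under mild and 3864 to 14652 under moderate hypercapnia, and its part in the COL5A3 values was not tested. In the RTN the medians were 4.94, 3.73 and 4.24 RPKM, and the differences were -0.59 ± 0.27 (unadjusted p = 0.0384, adjusted p = 0.751) and -0.50 ± 0.26 (unadjusted p = 0.0732, adjusted p = 0.707).

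In the VRC the COL5A3 medians were 8.30, 6.71 and 5.08 RPKM, with differences of -0.45 ± 0.25 (unadjusted p = 0.0813) and -0.56 ± 0.25 (unadjusted p = 0.0326, adjusted p = 0.864). In the mPFC they were 2.29, 1.56 and 1.79 RPKM, and the mild difference was -0.80 ± 0.43 (unadjusted p = 0.0798), with 6 of 6 libraries below the room air median. The groups overlapped in all 4 regions. Of the 8 oligodendrocyte markers, 8 were negative in the VRC under moderate hypercapnia (median -0.24) and 7 in the mPFC under mild (median -0.13), while 7 were positive in the RTN under mild (median 0.13). The r of COL5A3 with the fibroblast markers over 18 libraries was -0.38, -0.22, 0.08 and 0.15 in the mPFC, NTS, RTN and VRC, and none passed (adjusted permutation p from 0.173 to 0.893).

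COL15A1 had higher medians under both hypercapnia conditions in the RTN and the VRC. In the NTS the moderate median was also higher, with 1.40, 1.235 and 1.87 RPKM under room air, mild and moderate hypercapnia. In the VRC it had 0.501 to 2.28 RPKM under room air (median 0.924), 0.658 to 3.57 under mild (median 1.84) and 0.686 to 5.28 under moderate hypercapnia (median 1.83), and 5 of 6 libraries of each hypercapnia group lay above the room air median. The log2 differences were 0.96 ± 0.45 (unadjusted p = 0.0463, adjusted p = 0.791) and 1.19 ± 0.45 (unadjusted p = 0.016, adjusted p = 0.864). In the RTN the medians were 0.878, 1.74 and 1.70 RPKM, with differences of 0.66 (unadjusted p = 0.0937) and 0.57 (unadjusted p = 0.142). In the mPFC the medians were 2.74, 1.85 and 2.28 RPKM, and the mild difference was -0.37 ± 0.25 (unadjusted p = 0.156).

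COL25A1 had lower values under mild hypercapnia in 2 brainstem regions. In the RTN it had 0.135 to 1.27 RPKM under room air (median 1.11), 0.278 to 0.780 under mild (median 0.316) and 0.318 to 1.26 under moderate hypercapnia (median 0.724). All 6 mild libraries lay below the room air median, but 1 room air library was lower than all of them. The mild difference was -1.16 ± 0.47 (unadjusted p = 0.0237, adjusted p = 0.751). It rests on low counts, as the mean of COL25A1 over the RTN libraries was under 1 CPM. In the NTS the medians were 1.86, 1.43 and 1.60 RPKM, and the mild difference was -0.48 ± 0.21 (unadjusted p = 0.0346, adjusted p = 0.848), again with 6 of 6 libraries below the room air median. Of the 8 neuron markers 6 were negative in the RTN under mild hypercapnia (median -0.21) and 5 in the NTS (median -0.06), and their part was not tested.

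The remaining chains under an unadjusted p of 0.05 were each so in 1 region. COL4A1 in the NTS had 4.15 to 10.4 RPKM under room air (median 7.05), 5.01 to 9.62 under mild (median 7.22) and 3.88 to 6.67 under moderate hypercapnia (median 4.93). Its difference was -0.48 ± 0.19 for moderate against room air (unadjusted p = 0.0226, adjusted p = 0.337) and -0.48 against mild (unadjusted p = 0.0214). COL4A2, its partner, gave -0.47 for moderate against mild there (unadjusted p = 0.0496). The endothelial markers summed to 415 to 620 CPM under room air and 340 to 463 under moderate hypercapnia in the NTS, and their part was not tested. COL10A1 in the NTS had medians of 0.630 RPKM under room air and 0.929 under moderate hypercapnia (log2 0.48 ± 0.22, unadjusted p = 0.0396, adjusted p = 0.361), with 6 of 6 libraries above the room air median. COL2A1 in the VRC had 0.505 to 1.71 RPKM under room air (median 1.00) and 1.31 to 1.84 under mild hypercapnia (median 1.58), with a difference of 0.58 ± 0.25 (unadjusted p = 0.0291, adjusted p = 0.759). COL11A2 in the VRC had 1.97 to 9.24 RPKM under room air (median 2.76) and 0.375 to 3.37 under moderate hypercapnia (median 2.35), with a difference of -1.01 ± 0.47 (unadjusted p = 0.0453, adjusted p = 0.864). COL12A1 in the RTN had medians of 0.694 RPKM under mild and 0.543 under moderate hypercapnia (log2 -0.39 ± 0.17, unadjusted p = 0.0371, adjusted p = 0.428).

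Moderate against mild hypercapnia in the VRC gave 6 chains at an unadjusted p under 0.05, all lower in the moderate group, in a comparison where 15.5% of all genes had such a p. COL1A1 had 0.323 to 5.16 RPKM under mild (median 1.05) and 0.372 to 1.35 under moderate hypercapnia (median 0.676), with a difference of -1.08 ± 0.47 (unadjusted p = 0.0327, adjusted p = 0.28). The 5.16 RPKM came from mild replicate 3 alone, and the other mild libraries had 0.323 to 1.23, none above the highest moderate library. COL4A4 had medians of 1.57 and 1.05 RPKM (log2 -0.59 ± 0.25, unadjusted p = 0.0261, adjusted p = 0.261). COL16A1 had 5.56 to 16.1 RPKM under mild (median 14.3) and 5.76 to 11.5 under moderate hypercapnia (median 9.96), with a difference of -0.49 ± 0.23 (unadjusted p = 0.0414). COL2A1 gave -0.54 (unadjusted p = 0.0404), COL11A2 -1.0 ± 0.47 (unadjusted p = 0.0468) and COL6A3 -0.46 as given above. None passed after adjustment, and the groups overlapped for all 6. The fibroblast marker sum was 106 to 169 CPM in the mild and 61.3 to 126 CPM in the moderate libraries, and with the marker score as a covariate the COL1A1 difference was -0.20 and the COL6A3 difference -0.16. Other markers moved in the same comparison: 8 of 8 of oligodendrocytes (median -0.31, 3 at an unadjusted p under 0.05), 9 of 9 of endothelium (median -0.23), 6 of 6 of microglia and macrophages (median -0.47) and 6 of 6 of leukocytes (median -1.62) were negative. Those of neurons were positive in 8 of 8 (median 0.40, 4 at such a p). The part of these cell types in the 6 values was not tested.

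The sign of a chain's difference was the same in all 4 regions for a few chains, given here beside the share of all genes with that sign throughout. For mild hypercapnia COL4A2 and COL6A3 were positive in 4 of 4 regions (11.2% of 14741 genes), and COL5A3, COL8A2, COL17A1 and COL24A1 negative (13%). For moderate hypercapnia COL1A2, COL6A3 and COL15A1 were positive (12%), and COL5A3, COL11A2 and COL17A1 negative (10.4%). For moderate against mild COL8A2 was positive (16.2%) and COL6A3 and COL16A1 negative (13%).

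A test over regions used the mean log2 CPM of the 4 same-numbered libraries of a condition, on the reading that a number marks an animal, which the labels do not state. COL26A1 passed the filter in this fit and in the next, which makes 25 chains. The test called 0 of 25 chains in limma for mild, moderate and moderate against mild (0% of 16372 genes each). At an unadjusted p under 0.05 there was 1 chain higher and 2 lower for mild (5.41% of all genes), 1 higher and 1 lower for moderate (6.8%), and 0 for moderate against mild (10%). COL6A3 had means of 4.22 to 4.98 log2 CPM under mild hypercapnia and 2.83 to 4.21 under room air, which did not overlap (0.0977% of all genes did so in that direction). Its difference was 0.89 ± 0.22 for mild (unadjusted p = 0.000663, adjusted p = 0.688) and 0.56 ± 0.22 for moderate hypercapnia (unadjusted p = 0.0187, adjusted p = 0.669). With the fibroblast marker score as a covariate these were 0.89 and 0.56. COL5A3 gave -0.67 ± 0.22 (unadjusted p = 0.00608, adjusted p = 0.891) and -0.58 ± 0.22 (unadjusted p = 0.0148, adjusted p = 0.655), with 6 of 6 means below the room air median in both. COL8A2 gave -0.40 ± 0.17 for mild hypercapnia (unadjusted p = 0.0287, adjusted p = 0.891).

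Whether a chain's response differed among the 4 regions was tested in edgeR on all 72 libraries. No chain passed for mild or moderate hypercapnia (0 of 25, and 0% of 16372 genes), and the smallest unadjusted p was 0.0168 for COL25A1 under mild and 0.0135 for COL10A1 under moderate hypercapnia. A response in 1 region and not another is therefore not shown for any chain.

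The lists of other collagen genes gave no calls under hypercapnia either. In each of the 12 comparisons 0 of 32 to 33 synthesis genes, 0 of 16 to 18 receptors and breakdown genes, and 0 of 21 to 22 matrix partners passed an adjusted p under 0.05 in edgeR. At an unadjusted p under 0.05, P4HA3, a subunit of the prolyl hydroxylase that stabilises the helix, gave 1.04 ± 0.36 in the RTN (unadjusted p = 0.00979, adjusted p = 0.587) and 1.04 ± 0.40 in the VRC (unadjusted p = 0.017, adjusted p = 0.864) under moderate hypercapnia. MMP9, a gelatinase, gave -1.27 ± 0.41 in the mPFC under moderate hypercapnia (unadjusted p = 0.00611, adjusted p = 1.0). DDR1 gave 0.46 ± 0.16 in the RTN (unadjusted p = 0.00791, adjusted p = 0.571) and LAMB2, a laminin chain of vessels, 0.50 ± 0.16 there (unadjusted p = 0.00445, adjusted p = 0.558), both under moderate hypercapnia. BGN, a proteoglycan that binds collagen, gave -0.56 ± 0.20 in the NTS under mild hypercapnia (unadjusted p = 0.00957, adjusted p = 0.848).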

How the data were processed

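The deposited table holds raw counts per gene for 72 libraries, which the authors also gave as RPKM, and a deposited length of each gene model in bases (unit other). Libraries were made from total RNA with the SMARTer Universal Low Input RNA kit, per the labels. Reads went through FastQC, Trimmomatic and STAR, with featureCounts for counting and edgeR, per the submitters' processing notes. No version, genome build, annotation release or strand setting is named in the sources used here. The span given for each of the 26 chains was shorter than its length, so chromosomes are printed without positions.

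The members and gene lists were chosen with earlier results of these data known. All tests used the counts in R 4.3.3. Each region's 18 libraries entered 1 edgeR 4.0.16 fit (filterByExpr at a minimum of 10 counts, TMM scaling, quasi-likelihood F-test), with Benjamini-Hochberg adjustment over all genes tested and a threshold of 0.05. The 24 room air libraries were fitted together for region differences, and all 72 for differences in response. Means over the 4 same-numbered libraries of log2 CPM (prior count 2) were tested with limma 3.58.1. Errors of log2 differences are standard errors. Partner chains needed a mean of at least 0.5 CPM. Of 9 pairs in the correlations, 6 were added after seeing the data. Same-numbered libraries of different conditions did not deviate together (median r 0.0204, 22 of 72 pairs over 0.1), so numbers were not taken to pair conditions, while those of 1 condition in different regions did (median r 0.233, 92 of 108 pairs over 0.1).

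Chains were named with full values where called, where among the 3 of smallest p in a comparison with a mean of at least 1 CPM, where among the 5 of highest mean RPKM in a region or the highest of a class, or where among the 3 of largest called difference between regions, and other called chains were added after their values were seen. From the gene lists up to 3 genes of smallest p per comparison were eligible. The fits were tested on simulated data. Other settings tried were a replicate block, DESeq2 1.42.0, no filter, RLE factors, the 2 groups alone, limma with quality weights, all 72 libraries, summed counts, a prior count of 0.5 and each library left out, and, added after seeing the data, a fibroblast marker covariate and leaving out each room air library in the region comparisons. No library was a near copy of another in its group (chi-square per degree of freedom 15.3 to 217 over 180 pairs).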

Additional observations from a re-analysis of the deposited data

Results flagged for a closer look

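In 7 of 80 chain and group levels examined (8.75%), 1 library lay far from the other 5 of its group, each time on the high side. The rule marks about 1 in 20 groups of normally distributed values, which RPKM need not be, so no excess is shown. In the NTS under room air, replicate 5 had 8.39 RPKM of COL1A1, where the others had 0.508 to 2.13, and 78.9 RPKM of COL1A2, where the others had 2.72 to 25.8. Both are type I chains, and the same library held the highest fibroblast marker sum of its group, 159 CPM. In the VRC under mild hypercapnia, replicate 3 had 5.16 RPKM of COL1A1, where the others had 0.323 to 1.23, together with a leukocyte marker sum of 105 CPM and a fibroblast sum of 169 CPM. COL5A3 in the NTS stood out in replicate 2 of both hypercapnia groups, with 6.46 RPKM under mild (others 1.72 to 3.48) and 5.42 under moderate hypercapnia (others 1.80 to 3.01). The mild library also had the highest oligodendrocyte marker sum of its group, 21308 CPM (others 6341 to 13434), and the moderate one had 13167 CPM (others 3864 to 14652). COL14A1, the fibril-surface chain, had 4.32 RPKM in replicate 5 of the RTN under moderate hypercapnia (others 1.59 to 2.54), and COL15A1, of vessel basement membranes, had 2.49 RPKM in replicate 6 of the RTN under room air (others 0.510 to 1.16).

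For 2 chains every library of a hypercapnia group lay above the room air median in 1 region and below it in another. The share of all genes with such a pattern was not counted, so nothing particular to the chains is shown. COL10A1 under moderate hypercapnia had a median of 0.929 RPKM in the NTS, above room air, and 0.519 in the mPFC, below it. Its test of a difference in response over regions gave an unadjusted p of 0.0135 and an adjusted p of 1.0 in edgeR. COL26A1 under mild hypercapnia had a median of 0.375 RPKM in the RTN, above room air, and 0.214 in the mPFC, below it, with an unadjusted p of 0.146 and an adjusted p of 1.0, on 0 to 18 counts per library.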

How the results depend on the processing

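Of 357 alternative counts of chains called, 342 were within 1.5 times the reported count. Under hypercapnia the 1 that moved was the VRC under mild hypercapnia in DESeq2, with 1 chain (COL6A3). Leaving out each library, the counts were 0 to 0 in all 12 comparisons. Between regions, a fit of all 72 libraries took the mean difference over the 3 conditions, so it also used the hypercapnia libraries. Of 25 chains tested there, 21 were called in the mPFC against the RTN (11515 of 16372 genes). In the NTS 13 were called against the RTN (8655 genes) and 14 against the VRC (10073 genes). In the RTN against the VRC 13 were called (6391 genes). DESeq2 on the room air libraries gave 3 chains in the RTN against the VRC (2845 of 15700 genes). Leaving out each room air library in turn gave 10 to 12, 12 to 14, 15 to 16, 4 to 5, 5 to 10 and 1 to 3 chains in the mPFC against the NTS, RTN and VRC, the NTS against the RTN and VRC, and the RTN against the VRC. In the NTS against the VRC the 5 came without NTS replicate 5 (4704 of 15799 genes). In the RTN against the VRC the 2 to 3 came without RTN replicate 3 or 4 or VRC replicate 4. Those fits called 2057 of 15814, 2122 of 15843 and 1945 of 15815 genes. With the fibroblast covariate, the counts were 6 in the mPFC against the NTS (5466 of 15700 genes) and 8 against the VRC (6848 genes). They were 7 in the NTS against the RTN (3407 genes) and 3 in the RTN against the VRC (1819 genes). The mPFC differences from the NTS reversed to -0.11 for COL1A1 and -0.75 for COL1A2. With the replicate number as a block, the paired fit gave 6 in the RTN against the VRC (21.7% of all genes). It gave 6 in the NTS against the RTN (28.1%) and 12 in the NTS against the VRC (40.1%). In the mPFC comparisons its counts stayed within 1.5 times the reported ones. It gave 0 in every comparison of conditions. COL1A1 in the NTS against the VRC was lost under the block (adjusted p = 0.125) and with no filter (adjusted p = 0.0557). The cause of these shifts was not tested. The counts show the effect of each setting and are not read as a result about the chains as a set. Of 1017 alternative values of named chains, 997 kept direction and call. Low counts limited COL6A6, COL26A1, COL13A1 in the VRC and COL25A1 in the RTN. With 6 libraries a group the precision of type I collagen in the mPFC was limited, and the standard error of COL1A2 was 0.81 on the log2 scale.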

Other observations

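COL6A6 fell below the filter on low counts in every test reported, and COL26A1 in all tests within a region and between regions, entering only the mean over regions and the test of a difference in response among them. COL26A1, a chain first known from testis and ovary, had 0 to 18 counts per library and was at 0 in 6 of 72 libraries. COL6A6 was at 0 in 34 libraries, and its highest level was 0.0587 RPKM.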
